A study of Mus musculus with 16 samples.

Results

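Of 16 RNA sequencing libraries made from dorsal root ganglia of the lumbar region, which hold the cell bodies of sensory neurons, 3 contained little transcript of Hoxa10. They were chosen by that measurement: a Hoxa10 level below 10 CPM, counts per 1000000 counts of the library total. Library 81 of the importin α3 knockouts held 21 counts (0.863 CPM), library 79 of the wild types of that line 89 counts (4.52 CPM) and library 399 of the wild types of the importin β1 line 50 counts (1.93 CPM). In the 13 other libraries Hoxa10 ran from 23.4 to 88.0 CPM with a median of 60.3, the nearest being WT_alpha3 45 (23.4 CPM) and KO_beta 398 (23.9 CPM). These values made the sets and are not a result, and none of the 3 libraries was without Hoxa10 reads.

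All libraries came from C57BL/6 embryos at embryonic day 13.5, with 4 libraries in each of 4 groups. KO_alpha3 lacks importin α3 (gene Kpna4), KO_beta lacks the 3′ untranslated region of importin β1 (gene Kpnb1), and WT_alpha3 and WT_beta are the wild types labelled with each line. KO_beta has no library among the 3, and its 4 libraries are all in the set of 13. The labels do not state whether libraries came from separate embryos or litters, whether the deletions act in all cells, or which lumbar ganglia were taken, and p-values below are about the spread among these libraries, which may be technical.

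Hox genes encode homeodomain transcription factors and lie in the clusters HoxA, HoxB, HoxC and HoxD, numbered by paralogue group along each cluster. Genes with low numbers are expressed from rostral levels of the trunk backwards, and genes with high numbers only from more caudal levels. In the spinal cord and its ganglia, genes of paralogue groups 10 and 11 are known for expression at lumbar and sacral levels, which is why Hoxa10 carries information on the level of a dissected ganglion. The embryonic β-globins Hbb-bh1 and Hbb-y are made by primitive red blood cells, and their ratio shifts as the embryo ages.

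Library totals ran from 19682595 counts (WT_alpha3 79) to 26873361 (KO_beta 398). Kpna4 was 0.611 to 1.11 CPM in KO_alpha3, with 1.11 in library 81, and 66.5 to 84.0 CPM in every other library. Gene counts do not check a deletion in a 3′ untranslated region. Sensory neuron transcripts were abundant in every library: 19 markers summed to 16336 CPM in KO_alpha3 81, to 10838 in WT_alpha3 79 and to 16163 in WT_beta 399, against 14372 to 19531 in the 13 others. The log2 ratio of Hbb-bh1 to Hbb-y counts was highest in KO_alpha3 81 (-3.71) and WT_alpha3 79 (-4.10), and ranked 5 of 16 in WT_beta 399 (-5.17), after WT_alpha3 45 (-4.79) and KO_alpha3 42 (-5.10). In the 13 others it ran from -7.00 to -4.79 with a median of -6.45. The sets thus overlapped in this ratio only through WT_beta 399 and were not balanced for it, and the ratio entered the comparison as a term. KO_alpha3 81 and WT_alpha3 79 lay above every one of the 13. For them a comparison at equal globin ratio relies on a fitted line that extends beyond the ratios of the 13. Libraries KO_alpha3 81 and WT_beta 399 lacked Y-linked transcripts and WT_alpha3 79 had them.

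Across genes, the 3 libraries were compared with the 13 others by edgeR's quasi-likelihood test with the globin ratio as a term. A log2 fold change is the fitted difference at equal globin ratio, positive where the 3 are higher, and is given with its standard error. At a Benjamini-Hochberg adjusted p under 0.05, 0 of 15803 genes tested were called higher (0%) and 0 lower (0%). At an unadjusted p under 0.05 there were 1443 higher and 1143 lower, and the lowest adjusted p was 0.0740. DESeq2 with the same terms called 230 higher and 99 lower, while limma-voom and limma-trend called 0 in either direction. Leaving out KO_alpha3 81 gave 497 higher and 88 lower in edgeR, leaving out WT_beta 410 gave 91 and 29, and leaving out KO_beta 398 gave 222 and 32, so the count of 0 depended on single libraries. Described by levels alone, all 3 libraries lay below all 13 others in 126 genes (0.797%) and above all 13 in 184 (1.16%). The median log2 fold change of all genes tested was -0.0084.

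Hox genes outside HoxA, the cluster of the gene used for selection, differed by their position in the cluster. Of 26 tested in HoxB, HoxC and HoxD, 0 were called, and in 3 of them (11.5%), Hoxc10, Hoxd9 and Hoxd10, all 3 libraries lay below all 13 others, against 0.797% of all genes. In none of the 26 did all 3 lie above. The 4 genes of paralogue groups 10 and 11 were all negative, with a median log2 fold change of -3.76, and so were the 3 genes of group 9 (median -1.38). For the 9 tested genes of groups 1 to 5 the median was -0.091 with 5 negative, and for the 6 of groups 6 to 8 it was -0.071 with 4 negative. Of 4 tested genes of groups 12 and 13, 3 were negative (median -2.57), but their summed level was at most 4.47 CPM in any of the 13. The near-zero medians of the lower numbered groups turned with single libraries: without WT_beta 399, HoxB genes were positive in 9 of 9 (median 0.24).

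**Figure D1:**
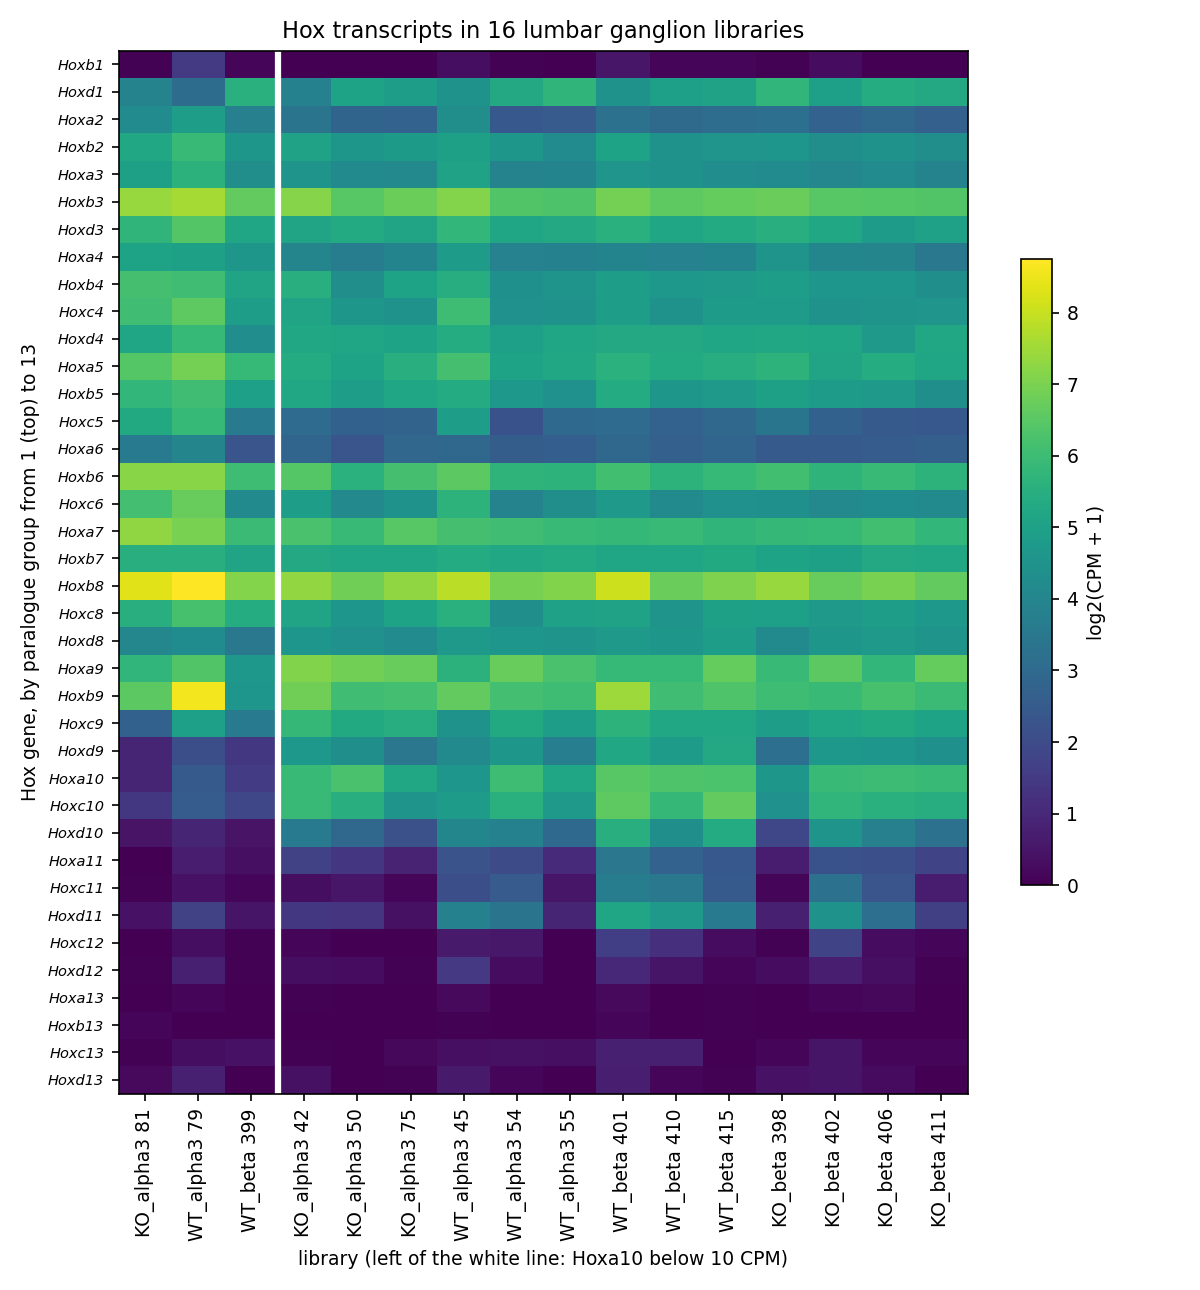
Levels of Hox genes as log2(CPM + 1) in 16 libraries, with genes ordered by paralogue group from 1 at the top to 13 and the 3 libraries chosen for low Hoxa10 left of the white line. Hoxc10, Hoxd9 and Hoxd10 are darker in all 3 than in any of the 13, whereas Hoxb8 and Hoxc6 are bright in KO_alpha3 81 and WT_alpha3 79 only among the 3.

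Hoxc10 (mm10 chromosome 15, 102966796 to 102971898), a group 10 factor that is expressed in lumbar motor neurons and ganglia, was 1.64 CPM in KO_alpha3 81, 4.78 CPM in WT_alpha3 79 and 2.67 CPM in WT_beta 399. In the 13 others it was 20.5 CPM at the lowest, 45.4 at the median and 99.6 at the highest. The highest of the 3 was below the lowest of the 13. The log2 fold change was -3.75 ± 0.72 (edgeR unadjusted p = 7.66e-05, adjusted p = 0.0740). Adjusted p was 0.000446 in DESeq2 and 0.504 in the α3 line alone, where the value was -3.48.

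Hoxd9 (chromosome 2, 74697763 to 74700208), the group 9 member of HoxD, was 0.863, 3.25 and 1.70 CPM in the 3 libraries, in the order KO_alpha3 81, WT_alpha3 79 and WT_beta 399, which the following sentences keep. In the 13 others it ran from 8.07 to 38.1 CPM with a median of 23.4. The sets did not overlap, and the log2 fold change was -3.27 ± 0.64 (edgeR adjusted p = 0.0740). Hoxd10 (chromosome 2, 74684273 to 74695106), its neighbour on the caudal side and a factor of lumbar motor pools, was 0.370, 0.864 and 0.387 CPM, from 9, 17 and 10 counts. The 13 others ran from 2.60 to 44.4 CPM with a median of 12.9. Here too the sets did not overlap, with a log2 fold change of -4.88 ± 1.23 (edgeR adjusted p = 0.0940). DESeq2 called both genes lower.

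**Figure D2:**
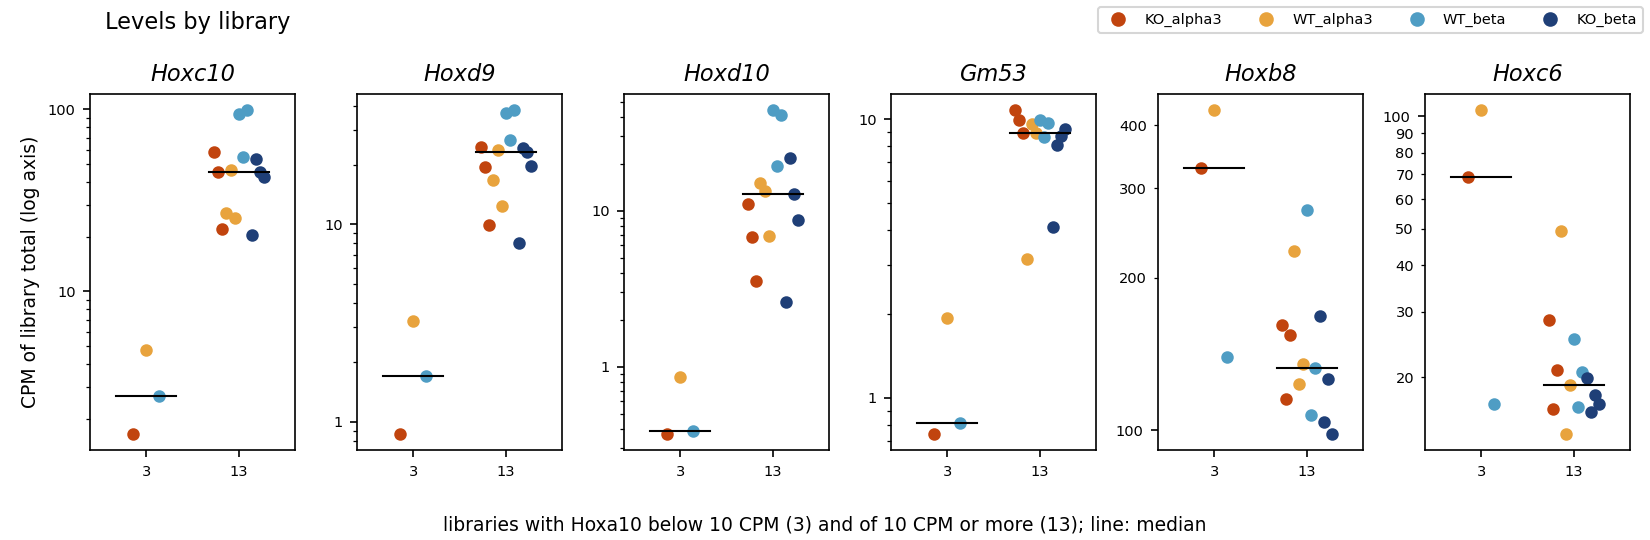
CPM of the library total on log axes for 6 genes, with 1 point per library coloured by group and a line at the median of the 3 libraries and of the 13 others. Hoxc10, Hoxd9, Hoxd10 and the noncoding gene Gm53 do not overlap between the sets, while Hoxb8 and Hoxc6 do, with WT_beta 399 inside the range of the 13.

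The other genes of groups 9 and 11 outside HoxA overlapped between the sets. Hoxc9, which contributes to thoracic identity of motor neurons, was 5.55, 29.5 and 11.1 CPM against 21.1 to 55.3 in the 13, so that WT_alpha3 79 lay inside their range (log2 fold change -1.38 ± 0.51, edgeR adjusted p = 0.187). Hoxb9 was 92.7 CPM in KO_alpha3 81, 386 CPM in WT_alpha3 79 and 23.1 CPM in WT_beta 399 against 60.3 to 178 in the 13: of the 16 libraries WT_alpha3 79 was the highest and WT_beta 399 the lowest. Hoxc11 was 0.0411, 0.356 and 0.116 CPM against 0.0744 to 11.97, and Hoxd11 was 0.329, 2.34 and 0.426 against 0.306 to 35.3 CPM. Both group 11 genes therefore varied widely among the 13 themselves, with no gap between the sets. Their log2 fold changes were -3.78 ± 2.15 and -3.49 ± 1.86 (edgeR adjusted p = 0.401 and 0.372). Hoxd8, at the boundary of the central HoxD genes, was 15.4, 18.2 and 10.4 CPM against 17.0 to 29.1 (-0.78 ± 0.23, adjusted p = 0.110), and its log2 fold change was -0.40 without WT_beta 399.

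The HoxA neighbours of the selecting gene are not independent of the choice and are given without a test. Hoxa11 had 0, 12 and 7 counts (0, 0.610 and 0.271 CPM) against 0.633 to 10.1 CPM in the 13, and 0 counts in KO_alpha3 81 allow up to 0.123 CPM, a limit of 3 counts that covers counting error only. Hoxa9 was 52.8, 81.9 and 24.6 CPM against 48.5 to 135, so only WT_beta 399 was outside the range of the 13. The counts of Hoxa11 and of its antisense gene Hoxa11os cannot be told apart without a stated strand setting, and the same holds for HoxD genes whose transcripts overlap.

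Genes of the rostral and central part of the clusters followed another order of the libraries. Hoxb8, a group 8 factor of brachial and thoracic levels, was 330 CPM in KO_alpha3 81, 429 CPM in WT_alpha3 79 and 140 CPM in WT_beta 399, against 98.3 to 272 in the 13 (median 133). Hoxc6, of brachial motor neurons, was 69.0, 104 and 16.9 CPM against 14.1 to 49.4, and Hoxc5 was 39.2, 57.2 and 11.1 CPM against 3.65 to 28.3. In all 3 of these genes KO_alpha3 81 and WT_alpha3 79 were above every one of the 13 and WT_beta 399 was within their range. WT_alpha3 45 was the highest of the 13 in Hoxc6 and Hoxc5. Hoxd1, whose product acts in nociceptor development, went the other way between the same libraries: 14.2, 7.47 and 46.4 CPM against 13.5 to 53.0, with WT_alpha3 79 the lowest of the 16.

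Summed over HoxB, HoxC and HoxD, groups 10 and 11 came to 2.38 CPM in KO_alpha3 81, 8.33 CPM in WT_alpha3 79 and 3.599 CPM in WT_beta 399, against 23.9 to 186 in the 13 (median 70.5). Groups 6 to 8 came to 647, 811 and 306 CPM against 248 to 479, and groups 1 to 5 to 536, 682 and 325 CPM against 272 to 462. The low sums of groups 10 and 11 were shared by all 3 libraries, and the high sums of groups 1 to 8 by KO_alpha3 81 and WT_alpha3 79. In these bulk libraries, fewer cells expressing a gene and less RNA per cell cannot be told apart.

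Ratios of counts within a cluster and a library do not depend on the scaling, and gene length cancels between libraries. Hoxc10 counts per Hoxc8 count were 0.0375 in KO_alpha3 81, 0.0661 in WT_alpha3 79 and 0.0648 in WT_beta 399, against 0.581 to 3.30 in the 13 (median 1.76). Hoxd10 per Hoxd8 was 0.0240, 0.0474 and 0.0372 against 0.153 to 1.77, and Hoxd9 per Hoxd8 was 0.0560, 0.178 and 0.164 against 0.474 to 1.46. Hoxc9 per Hoxc8 was 0.127, 0.409 and 0.270 against 0.455 to 1.99. In each of these 4 ratios the 3 libraries lay below all 13, also where the level of Hoxc9 alone overlapped. The HoxB ratio did not separate the sets: Hoxb9 per Hoxb7 was 2.10, 8.76 and 0.692 against 1.64 to 5.07.

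**Figure D3:**
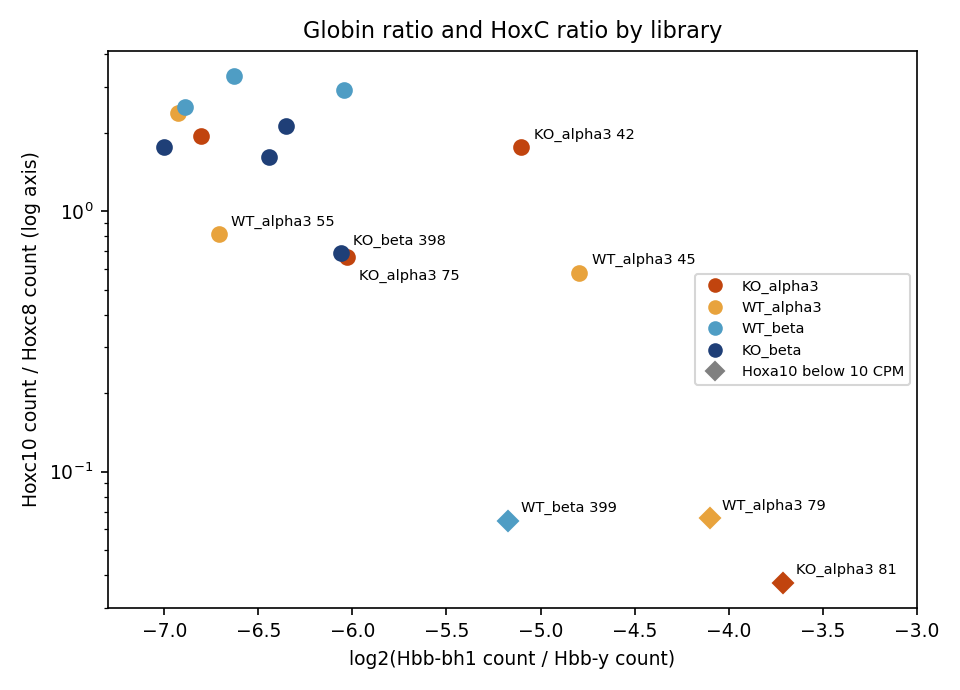
Ratio of Hoxc10 to Hoxc8 counts (log axis) against log2 of Hbb-bh1 over Hbb-y counts, 1 point per library; diamonds are the 3 libraries chosen for low Hoxa10. WT_beta 399 has a ratio of 0.0648 at a globin ratio of -5.17, close to KO_alpha3 42 at -5.10, whose Hoxc10 to Hoxc8 ratio is 1.76.

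Libraries with a like globin ratio could differ in the Hox ratio. WT_beta 399 and KO_alpha3 42 were at -5.17 and -5.10 on the globin scale and at 0.0648 and 1.76 in Hoxc10 per Hoxc8. These libraries also differ in line and genotype. WT_alpha3 45, at -4.79 on the globin scale, had 0.581, the lowest of the 13. Among the 13 the lowest Hoxc10 levels were 20.5 CPM in KO_beta 398 and 22.1 in KO_alpha3 75, and the highest were 94.4 and 99.6 CPM in WT_beta 401 and 415.

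Each of the 3 libraries was also set against the other 3 libraries of its own group, as log2 of the ratio of CPM + 0.5 to their median. This comparison is within 1 line and genotype and has 1 library on a side, so it carries no test. Hoxc10 was at -4.41 in KO_alpha3 81, -2.37 in WT_alpha3 79 and -4.90 in WT_beta 399, and Hoxd10 at -3.06, -3.36 and -5.54. The median over HoxB, HoxC and HoxD genes of groups 10 and 11 was -2.19, -2.25 and -4.86. For groups 6 to 8 the median was 0.71, 1.35 and 0.00089, and for groups 1 to 5 it was 0.61, 1.36 and 0.076. The 3 libraries were thus all low in groups 10 and 11 and differed among themselves in the lower numbered groups. Group 9 divided them further, with Hoxb9 at 0.43, 2.46 and -1.77.

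**Figure D4:**
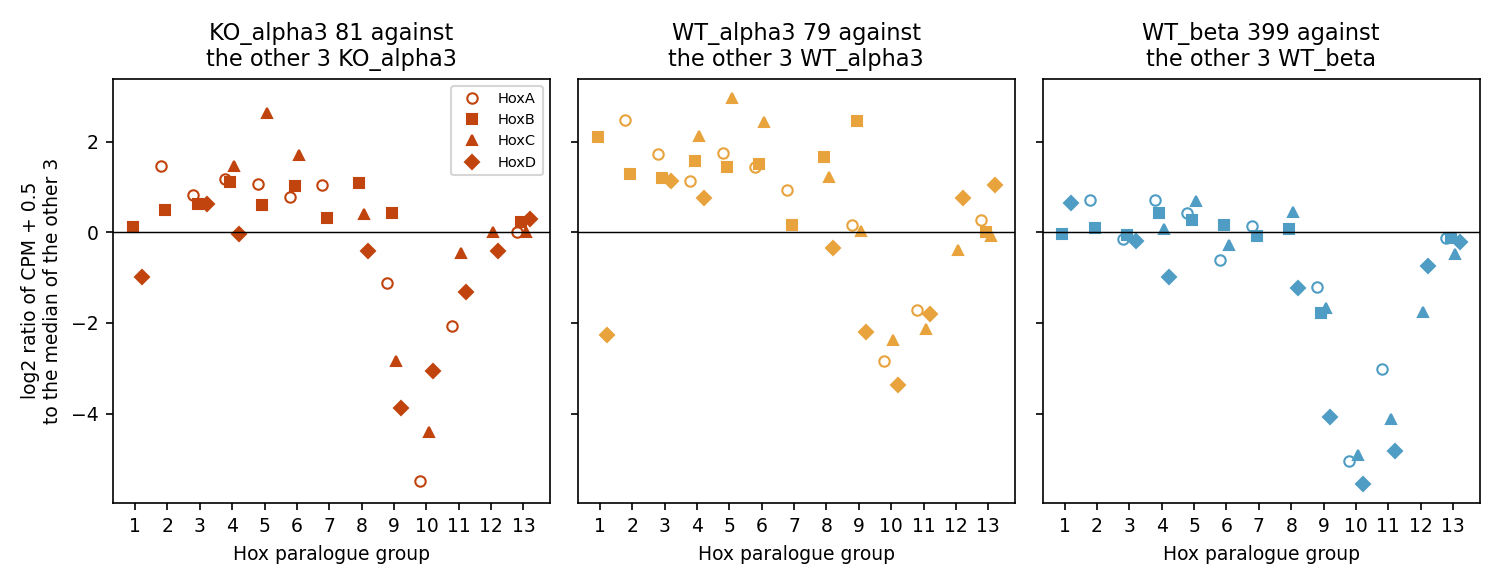
Log2 ratio of CPM + 0.5 of Hox genes to the median of the other 3 libraries of the same group, by paralogue group; open circles are HoxA genes, which include the selecting gene. The genes of group 10 are at least 2.37 log2 units below 0 in every panel, and those of groups 1 to 8 are mostly above 0 in KO_alpha3 81 and WT_alpha3 79 and near 0 in WT_beta 399.

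The clusters also hold noncoding genes, and 1 of them, Gm53, separated the sets in the same direction as Hoxc10. Gm53 is a long noncoding RNA gene on chromosome 11 (96251660 to 96264484), between Hoxb13 and Hoxb9, that ends 679 bases before the hairpin of Mir196a-1. It was 0.740, 1.93 and 0.813 CPM in the 3 libraries and 3.16 to 10.8 in the 13 (median 8.93), with no overlap. The log2 fold change was -2.44 ± 0.51 (edgeR adjusted p = 0.0740, DESeq2 adjusted p = 0.000536). Of 8 noncoding Hox cluster genes tested 4 were positive, with a median of -0.025 and 0 called. The median was -0.70 without WT_alpha3 79 and 0.29 without the globin term.

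The miR-196 family is coded beside the group 9 gene in each of 3 clusters, and targets transcripts of more rostral Hox genes. Its mature sequences are shown because their genes neighbour the transcripts that separated the sets. Mir196a-1 (chr11:96265187-96265208, plus strand) lies between Hoxb13 and Hoxb9, Mir196a-2 (chr15:102973365-102973386, plus strand) between Hoxc10 and Hoxc9, and Mir196b (chr6:52230129-52230150, minus strand) between Hoxa9 and Hoxa10, all on GRCm38.p6. The capitals mark the seed, bases 2 to 8, which both share, and the only difference between them is A12C, counted from the 5′ end of miR-196a-5p.
miR-196a-5p: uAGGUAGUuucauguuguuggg
miR-196b-5p: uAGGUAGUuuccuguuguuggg

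Libraries of polyadenylated RNA do not measure mature miRNAs. The gene Mir196a-1 had 1 to 17 counts per library, 101 in all, Mir196b 0 to 2 and Mir196a-2 0, so their levels were not compared. In the GENCODE M21 transcripts, taking the longest 3′ untranslated region of each gene, the 7-base match to the seed (ACTACCT, given strand) was found in 1282 of 20947 genes (6.12%) and in 9 of 39 Hox genes (23.1%). Hoxa7 held 4 matches and Hoxc8 held 2. None of these 9 genes separated the sets. Hoxb8, the known target that is cleaved through near-complete pairing, has no such match but a site at bases 421 to 442 of its 848-base 3′ untranslated region, in which 21 of 22 bases pair with miR-196a-5p and 1 forms a wobble pair. The capitals mark the bases opposite the seed.
Hoxb8 site: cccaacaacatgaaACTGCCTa

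A match is a description of the sequence. Hoxb8 was above all 13 libraries in KO_alpha3 81 and WT_alpha3 79 and not in WT_beta 399 (330, 429 and 140 CPM), and so were Hoxc6 and Hoxc5, which hold no match to the seed.

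Cofactors and other regulators of axial patterning showed small differences. Of 9 genes of the Meis, Pbx and Pknox families, whose proteins bind DNA together with Hox proteins, 3 were positive (median -0.17) and 0 were called. The median was 0.019 without WT_beta 399, 0.062 without WT_alpha3 45 and 0.24 without the globin term, so the list had no settled direction. Meis3 was 191, 153 and 116 CPM against 115 to 168 (-0.32 ± 0.12, edgeR adjusted p = 0.178), and Pknox1 was 67.3, 59.5 and 40.9 CPM against 37.8 to 63.3 (-0.36 ± 0.13, adjusted p = 0.179), and without WT_beta 399 they were at -0.14 and -0.18. Of 12 axial patterning genes tested, 5 were positive (median -0.12) and 0 were called, and without the globin term 10 of 12 were positive (median 0.47). Lin28a, an RNA-binding protein of early embryonic cells that falls with developmental age, was 2.38, 3.61 and 2.55 CPM, above all 13 others (0.282 to 2.16). Its log2 fold change at equal globin ratio was 0.75 ± 0.43 (edgeR adjusted p = 0.401), 0.27 without WT_beta 399, 1.44 without WT_alpha3 45 and -0.0025 with the mean of a liver list as a further term.

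Lists of sensory neuron classes held 0 called genes each. Of 10 proprioceptor genes 8 were positive (median 0.15), of 11 mechanoreceptor genes 8 (median 0.21), of 19 nociceptor genes 11 (median 0.11) and of 19 general sensory neuron genes 11 (median 0.041), against a median of -0.0084 over all genes. These directions turned without the globin term, to 4 of 10 (median -0.15), 3 of 11 (median -0.30), 2 of 19 (median -1.02, with 2 called lower) and 4 of 19 (median -0.28, with 1 called lower), in the same order. At equal globin ratio, the nociceptor list was at 5 of 20 (median -0.23) without WT_beta 399, and the general list at 6 of 19 (median -0.064) without KO_alpha3 81. The proprioceptor median was 0.49 without WT_alpha3 45 and 0.094 without KO_alpha3 42, and the mechanoreceptor median was 0.11 without WT_alpha3 45. Pvalb, a calcium buffer of proprioceptors, was 1.15, 1.83 and 4.10 CPM against 0.362 to 9.13, inside the range of the 13 (2.29 ± 0.67, edgeR adjusted p = 0.113). Etv1, a transcription factor that proprioceptors need to connect to motor neurons, was 53.9, 56.5 and 112 CPM against 38.3 to 168 (0.76 ± 0.31, adjusted p = 0.240). Ntrk2, the BDNF receptor of mechanoreceptors, was 113, 160 and 146 CPM against 108 to 168 (0.38 ± 0.12, adjusted p = 0.138). Gfra1, a GDNF receptor, was at -0.60 ± 0.17 (adjusted p = 0.101), the sodium channel gene Scn3a at -0.43 ± 0.14 (adjusted p = 0.148) and peripherin, Prph, at 0.73 ± 0.25 (adjusted p = 0.157). Without WT_alpha3 45, Pvalb was at 3.59 and Etv1 at 1.36. Levels of these 6 genes in the 3 libraries overlapped those of the 13. Summed nociceptor levels were 3084 CPM in KO_alpha3 81, 1998 CPM in WT_alpha3 79 and 4243 CPM in WT_beta 399 against 3215 to 5351, so the libraries with the highest globin ratios were also those below the range.

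Of 30 axon guidance genes, 13 were positive (median -0.055) and 0 were called, with medians from -0.11 to -0.0039 when 1 library was left out. Epha5, a receptor for ephrin-A ligands, was 26.0, 14.9 and 12.2 CPM against 12.04 to 41.5 (-1.22 ± 0.28, edgeR adjusted p = 0.0795), and at -0.80 without KO_alpha3 42. Of 18 glial and Schwann cell precursor genes 7 were positive (median -0.38). Without WT_beta 399 the median was -0.14, and without KO_alpha3 81 1 gene was called higher and 5 lower. Fabp7, a lipid-binding protein of satellite glia and precursors, was 470, 286 and 311 CPM against 270 to 628 (-0.88 ± 0.22, adjusted p = 0.0940). Apoe, an apolipoprotein made by glia and liver, was 76.0, 126 and 479 CPM against 86.4 to 523 (1.33 ± 0.34, adjusted p = 0.0963), and at 0.62 without WT_beta 399. None of these 3 genes separated the sets.

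For progenitor and cell cycle genes the outcome depended on the globin term. Progenitor and Notch pathway genes summed to 1611 CPM in KO_alpha3 81 and 1476 in WT_alpha3 79 but to 590 in WT_beta 399, against 541 to 1565 in the 13. At equal globin ratio 1 of these 18 genes was positive (median -0.58), but 8 of 18 were without WT_beta 399 (median -0.21), and the median was -0.96 without WT_alpha3 79. Neurod4, a transcription factor of newly born neurons, was 50.9, 34.0 and 4.26 CPM against 0.543 to 81.8 (-3.09 ± 0.83, edgeR adjusted p = 0.101), and Neurod1 was 253, 151 and 55.6 CPM against 15.5 to 263 (-1.63 ± 0.45, adjusted p = 0.102). Cell cycle genes summed to 1888, 3212 and 2023 CPM against 786 to 2292, with 15 of 25 positive (median 0.095) and 0 called. That direction rested on single libraries: without WT_beta 399, 6 of 25 were positive (median -0.081), and without KO_alpha3 81, 20 of 25 (median 0.17, with 3 called higher).

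Without the globin term, the same comparison in edgeR called 1241 genes higher and 387 lower, out of 15803 tested. At an unadjusted p under 0.05 there were 2989 higher and 2274 lower, so shifts were widespread among all genes. Besides Hoxa10, 6 Hox genes were then called lower (Hoxa11, Hoxc9, Hoxc10, Hoxd8, Hoxd9 and Hoxd10), and 17 Hox genes of groups 1 to 8 were called higher, among them Hoxb8, Hoxc5 and Hoxc6. Cell cycle genes were positive in 25 of 25, with 21 called, and progenitor genes in 17 of 18 (median 1.06). Neurod4 changed from -3.09 to 1.17 and Neurod1 from -1.63 to 1.10. Hoxc10 was at -4.02, Hoxd9 at -3.51 and Hoxd10 at -4.89 in that fit. The direction of the caudal Hox genes thus did not depend on the term, whereas that of progenitor, sensory neuron, sympathetic and spinal cord genes did. How much of either belongs to embryonic age and how much to body level was not tested.

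**Figure D5:**
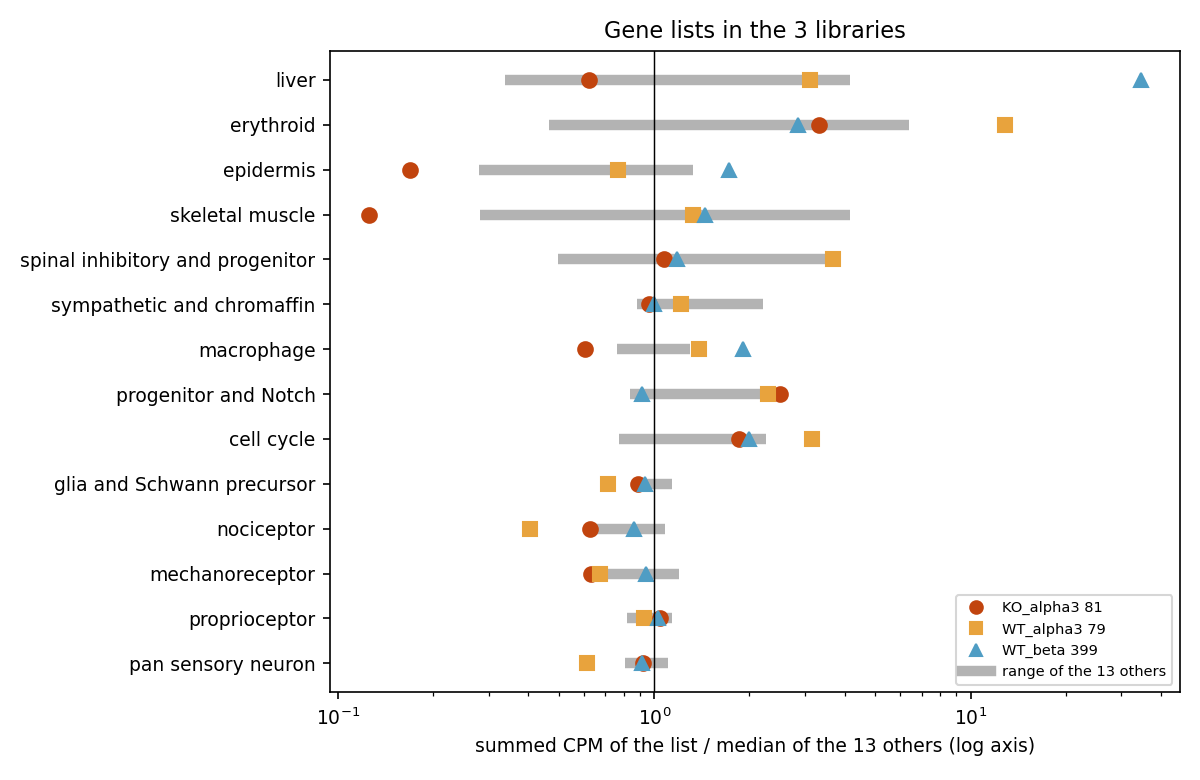
Summed CPM of 14 gene lists in the 3 libraries, divided by the median of the 13 others (log axis); grey bars give the range of the 13. Liver genes are far outside that range in WT_beta 399 alone, erythroid genes in WT_alpha3 79 alone, and KO_alpha3 81 is below it in muscle, epidermis and macrophage genes.

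Markers of other tissues differed among the 3 libraries. Liver genes summed to 103 CPM in KO_alpha3 81, 515 CPM in WT_alpha3 79 and 5741 CPM in WT_beta 399, against 55.7 to 691 in the 13 (median 166). All 17 were positive (median log2 fold change 4.54) and 0 were called, with Trf, the iron carrier transferrin, at 14.02, 56.1 and 538 CPM against 11.99 to 65.8 (3.69 ± 0.82, edgeR adjusted p = 0.0740) and Rbp4, the retinol carrier, at 2.38, 14.4 and 111 CPM against 0.282 to 16.1 (4.22 ± 1.08, adjusted p = 0.0963). KO_alpha3 81 lay below the median of the 13 in this sum, and without WT_beta 399 the median of the list was 0.96, Trf was at 0.66 and Rbp4 at 1.33. Without KO_beta 398, 13 of the 17 were called higher. Albumin, Alb, a defining liver transcript, was 15.2, 147 and 1784 CPM against 1.57 to 213. The part of liver RNA in the other results was not tested. With the mean of the liver list as a further term, Hoxc10 was at -3.97 (edgeR adjusted p = 0.434), Hoxd9 at -3.31 (adjusted p = 0.494) and Hoxd10 at -5.50 (adjusted p = 0.515).

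Erythroid genes summed to 2763, 10707 and 2359 CPM against 386 to 5325 (median 831), a sum that holds both globins of the ratio, and 6 of 9 tested were positive (median 1.77, and 1.10 without WT_alpha3 79 or 1.02 without KO_alpha3 42). Gata1, the master regulator of red cells, was 3.66, 31.1 and 31.8 CPM against 0.847 to 7.07 (3.18 ± 0.82, edgeR adjusted p = 0.0963), and Klf1, an activator of globin genes, 5.88, 54.5 and 53.8 CPM against 1.85 to 13.8 (3.002 ± 0.80, adjusted p = 0.101). In both genes WT_alpha3 79 and WT_beta 399 were above the 13 and KO_alpha3 81 was inside their range.

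Sympathetic and chromaffin genes were negative in 17 of 17 (median -2.46), with 11 at an unadjusted p under 0.05 and 0 called. Without the globin term the direction turned, with 12 of 17 positive (median 0.22). Their sum was 516, 650 and 532 CPM against 470 to 1175, inside the range of the 13, whose highest value was that of WT_alpha3 45. Npy, a neuropeptide of sympathetic neurons, was 6.00, 5.13 and 2.79 CPM against 3.57 to 25.1 (-2.46 ± 0.57, edgeR adjusted p = 0.0795). Insm1, a factor of neuroendocrine cells and neural progenitors, was 166, 128 and 30.0 CPM against 16.8 to 181 (-1.69 ± 0.37, adjusted p = 0.0740), and at 1.09 without the globin term.

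Skeletal muscle genes were positive in 1 of 21 (median -0.49), but in 13 of 21 without WT_alpha3 45 (median 0.13), with sums of 41.9, 445 and 486 CPM against 94.4 to 1393. Spinal cord genes were positive in 4 of 20 (median -0.70), with sums of 42.4, 146 and 46.8 CPM against 19.6 to 146. Without the globin term they were positive in 17 of 20 (median 0.71), and without WT_beta 401 the median was -0.074. Epidermal genes were positive in 15 of 15 (median 0.82), with sums of 12.01, 54.5 and 122 CPM against 19.9 to 94.3, and macrophage genes in 18 of 18 (median 0.46), with sums of 103, 237 and 326 CPM against 131 to 221. Without WT_beta 399 the counts for epidermis and macrophages were 8 of 15 and 10 of 18. In none of these 4 lists did the 3 libraries lie together on 1 side of the range of the 13, and the part of such tissue in the results was not tested.

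The genes of lowest p in each direction, outside HoxA, all had an edgeR adjusted p of 0.0740. Those with higher fitted values were Slc25a38, a mitochondrial glycine carrier of heme synthesis (0.61 ± 0.11), Stard10, a lipid transfer protein (0.81 ± 0.15), Pla1a, a phospholipase (3.93 ± 0.71), Gpd1, a glycerol phosphate dehydrogenase (1.33 ± 0.24), and Capn1, a calpain protease (1.02 ± 0.18). None of the 5 separated the sets: Slc25a38 was 28.0, 40.0 and 37.4 CPM against 24.7 to 32.5, and Pla1a was 0.206, 0.356 and 2.82 CPM against 0.0416 to 0.558. Without WT_beta 399 the log2 fold change of Pla1a was 1.67 (edgeR adjusted p = 0.676). On the lower side stood Hoxc10, Hoxd9 and the zinc finger genes Zfp184 (-0.66 ± 0.12), Zfp810 (-0.44 ± 0.09) and Zfp113 (-0.55 ± 0.11). Zfp184 was 14.4, 14.6 and 10.1 CPM against 9.62 to 17.6, so of these 5 genes only the 2 Hox genes differed without overlap before the globin ratio was taken into account.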

How the data were processed

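Values deposited by the authors were raw counts for each gene symbol and a normalized signal, in which each library's counts are multiplied by a constant. The submitters' processing notes name, without roles, DESeq2 1.6.3, HTSeq 0.6.1p1, TopHat2 2.0.10, bcl2fastq 2.17.1.14, cutadapt and mm10; for annotation, filters and strand the setting is not given in the sources used. The table held 24421 symbols, of which 3922 had 0 counts in every library.

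Libraries were divided by the rule of Hoxa10 below 10 CPM. Members, gene lists and tests were chosen with earlier results of these data known. Tests were run on the counts with edgeR 4.0.16 under R 4.3.3, using TMM scaling, filterByExpr (minimum count 10, minimum total 15, smallest set 3), 2-sided quasi-likelihood tests, with the globin ratio as a term and Benjamini-Hochberg adjustment over 15803 genes at 0.05. The procedure was tested on simulated data. The simulated counts held no effect of the globin ratio on any gene, so that case was not tested. Levels are CPM of the library total. Genes named are all Hox genes measured, up to 15 called genes in each direction (or the 5 of lowest p, averaging at least 1 CPM), and the 2 members of lowest p of each list; the text gives those that describe a result, and some genes are not reported here. Alb, Hoxb8 and the Hox ratios were singled out with their values known.

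The alternatives covered scalings, filters, DESeq2 1.42.0, limma 3.58.1 (voom on counts, trend on the signal), other terms, subsets of libraries and each library left out. The liver and erythroid list means were added as terms after the data were seen. miRNA sequences and coordinates are from RefSeq (GRCm38.p6, the assembly of mm10), with 39 of 39 Hox symbols matched, and 3′ untranslated regions from GENCODE M21.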

Additional observations from a re-analysis of the deposited data

Results flagged for a closer look

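In each group of 4 libraries, the highest and lowest value of each of 54 measures (216 series of 4) was compared with the rest by Dixon's criterion, the gap to the nearest library as a share of the whole range. Chance alone marks about 1 in 20 such series, and 10 of the 216 were marked. Among Hox genes, Hoxb9 was 386.3 CPM in WT_alpha3 79 against 64.9 to 99.5 in the other 3 libraries of its group. Hoxa10, the selecting gene, was 1.935 CPM in WT_beta 399 against 77.02 to 88.0, and 23.85 CPM in KO_beta 398, a library outside the 3, against 58.4 to 62.2. The liver sum was 5741 CPM in WT_beta 399 against 60.2 to 442, 515.2 in WT_alpha3 79 against 129 to 159, and 690.9 in KO_beta 398 against 125 to 176. Pla1a was 2.825 CPM in WT_beta 399 against 0.323 to 0.543, and Zfp810 was 21.32 CPM there against 25.5 to 25.9. The limb mesenchyme sum was 200.1 CPM in WT_beta 401 against 122 to 123, and the sum of sex-linked transcripts was 130.9 CPM in KO_beta 406 against 140 to 141.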

How the results depend on the processing

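The sets were chosen on 1 gene, hold 3 and 13 libraries and differ in globin ratio, and genes under about 1 CPM rest on few counts. No paired analysis was possible because no replicate number is shared between groups. Of 35 alternatives, those not named here called 0 genes in either direction. Calls higher and lower were 16 and 1 with no filter on low counts, 230 and 99 in DESeq2 (in which 307 genes had no adjusted p), 1241 and 387 with no globin ratio term, 1 and 0 with study groups as a term, 138 and 78 with the Y-linked sum as a term, 942 and 607 with log2 Hoxa10 as a continuous term, 47 and 54 with groups 10 to 13 of HoxC and HoxD as a continuous term, 63 and 8 in wild types alone, and 1 and 0 with the erythroid mean as a term. Hoxa10 was among the calls under its own term, and Hoxc11, Hoxd10 and Hoxd11 were among those under the term that contains them. Those calls were fixed by the choice of term. With 1 library left out, calls ran from 0 to 497 higher and from 0 to 88 lower: 497 and 88 without KO_alpha3 81, 91 and 29 without WT_beta 410, 222 and 32 without KO_beta 398, and 0 without any other library. The cause was not tested.

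For 36 genes, 1256 fold changes under these alternatives kept their direction and side of the threshold in 1086, passed it in 155 and changed sign in 15. Hoxc10 (-4.57 to -1.45), Hoxd9 (-4.13 to -1.42), Hoxd10 (-6.35 to -2.44) and Gm53 (-3.07 to -0.47) were negative in each of the 35. Under a continuous term a fold change is the fitted slope times the difference in that term's mean, the 3 libraries minus the 13. The term of groups 10 to 13 of HoxC and HoxD contains Hoxc10 and Hoxd10, so their sign in that fit was fixed in advance. With no globin ratio term the sign changed for Gpd1 (-0.022), Capn1 (-0.27), Zfp184 (0.036), Meis3 (0.21), Pknox1 (0.26), Pvalb (-0.83), Etv1 (-0.53), Ntrk2 (-0.011), Gfra1 (0.047), Prph (-0.68), Neurod4 (1.17), Neurod1 (1.10), Apoe (-0.48) and Insm1 (1.09), and with the liver mean for Lin28a (-0.0025).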
